A study of Mus musculus with 12 samples.

Results

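The genes described here are 9 secreted regulators of metabolism and growth made by the liver, among 21853 protein-coding mouse genes examined in the same way. They were chosen by name as hepatokines and liver growth factors: Fgf21, Gdf15, Igf1, Igfbp1, Igfbp2, Angptl4, Angptl8, Hamp and Selenop. For each gene, every listed peak in the gene body and the 20 kb on either side was taken, with positions on mm10 (GRCm38) and gene models of GENCODE mouse release 21. ChIP-seq of mouse liver gave 3 lists of peaks. One list is of LSD1, a demethylase that removes methyl groups from histone H3, in wild-type C57BL/6 mice. The other lists are of H3K4me2, one of its substrates, in GFP control and LSD1-LKO mice. Both kinds of mice were LSD1 fl/fl, and as young adults the controls received AAV8-TBG-GFP and the LSD1-LKO mice AAV8-TBG-Cre. The TBG promoter directs Cre to hepatocytes, so that the other cells of the liver keep LSD1. The methods then describe a high-fat diet of some weeks until tissues were taken from LSD1-LKO and control mice. They do not say whether the mice used for ChIP-seq had this diet, and no source used here gives the age or diet of the wild-type mice or says whether 1 library is 1 mouse, so that the spread between libraries may be technical.

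The series has 12 samples, with 2 ChIP libraries and their control libraries behind each list. Labels give the control libraries as input, the methods as IgG. A list holds only peaks found in both ChIP libraries. An entry gives the peak of one library, called here first-listed, and the overlapping peak of the other, called second-listed. The replicate number of neither library is known, and the numbers of reads are unknown. Where pairs of libraries are compared between genotypes, the pairs follow the order of listing and match no replicates. The lists hold 14584 LSD1 peaks, 43891 control H3K4me2 peaks and 50675 LSD1-LKO H3K4me2 peaks. Second-listed H3K4me2 peaks were wider, with a median of 1161 bp in control and of 1240 in LSD1-LKO against 648 and 565 bp in the first-listed libraries, so that several first-listed peaks often share 1 second-listed peak. The targeted gene, Kdm1a, which encodes LSD1, had no listed H3K4me2 peak at its promoter in control and 2 in LSD1-LKO, which is no check of the deletion. Of 8 hepatocyte marker genes, 6 had an H3K4me2 promoter peak in control, where Alb and Cps1 had none, and 8 in LSD1-LKO. Of the 6, 3 had both LSD1-LKO libraries below both control libraries and 0 above, against 16.4% and 17.8% of all genes in both lists. The value compared was the percentile of the strongest promoter peak by p-value within its library. No gain is read from the counts. The 5 Kupffer cell and 4 lymphocyte markers had no H3K4me2 promoter peak in either list. Among 5 endothelial markers 0 and 1 had one, among 5 stellate markers 1 and 2, and among 5 cholangiocyte markers 3 and 2. The samples are whole liver, and a mark in fewer cells cannot be told apart from less of the mark per cell.

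Hepatokines are proteins that hepatocytes release into the blood to act on other organs. FGF21 and GDF15 are stress- and nutrient-responsive hormones, IGF1 carries much of the growth signal of growth hormone, and the IGF binding proteins hold IGF1 in the circulation. ANGPTL4 and ANGPTL8 restrain lipoprotein lipase, hepcidin from Hamp limits iron export from cells, and selenoprotein P carries selenium. H3K4me2 is found at promoters and enhancers of active or poised genes, often as a broad region downstream of the transcription start site (TSS).

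H3K4me2 was listed at the promoters of all 9 genes in both genotypes, and 3 of 9 had an LSD1 promoter peak. A promoter reached 1 kb to each side of a protein-coding TSS, and an overlap of 1 bp was counted. Among all protein-coding genes 58.8% had a control H3K4me2 promoter peak, 58.9% had one in LSD1-LKO and 23.6% had an LSD1 promoter peak. The genes with LSD1 at the promoter were Gdf15, Igfbp1 and Angptl4. In the wider windows there were 22 LSD1 peaks, at 8 of 9 genes, against 51.4% of all genes. Selenop had none. Peak numbers grow with the length of the window, and the median density of LSD1 peaks was 4.47 per 100 kb over the 9 windows and 0.379 over the windows of all genes. That median is low because many windows of all genes held no LSD1 peak, so no enrichment is read from it. All genes also include many without promoter H3K4me2. Of the 12181 genes with a promoter peak in both H3K4me2 lists, 7257 had no LSD1 promoter peak. The windows held 63 control and 78 LSD1-LKO H3K4me2 peaks. Of the control peaks 17 lay at the promoters of the 9 genes, 8 at the promoter of a neighbouring gene, 18 elsewhere in the gene body and 20 outside. In LSD1-LKO these numbers were 20, 9, 27 and 22. The map of listed peaks shows H3K4me2 at the promoters in both genotypes, though at different places for Hamp, while some distal peaks were listed in one genotype. Of the control peaks in the windows 74.6% overlapped an LSD1-LKO peak, against 68.1% of all control peaks. Of the LSD1-LKO peaks in the windows 60.3% overlapped a control peak, against 64.1% of all LSD1-LKO peaks.

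**Figure D1:**
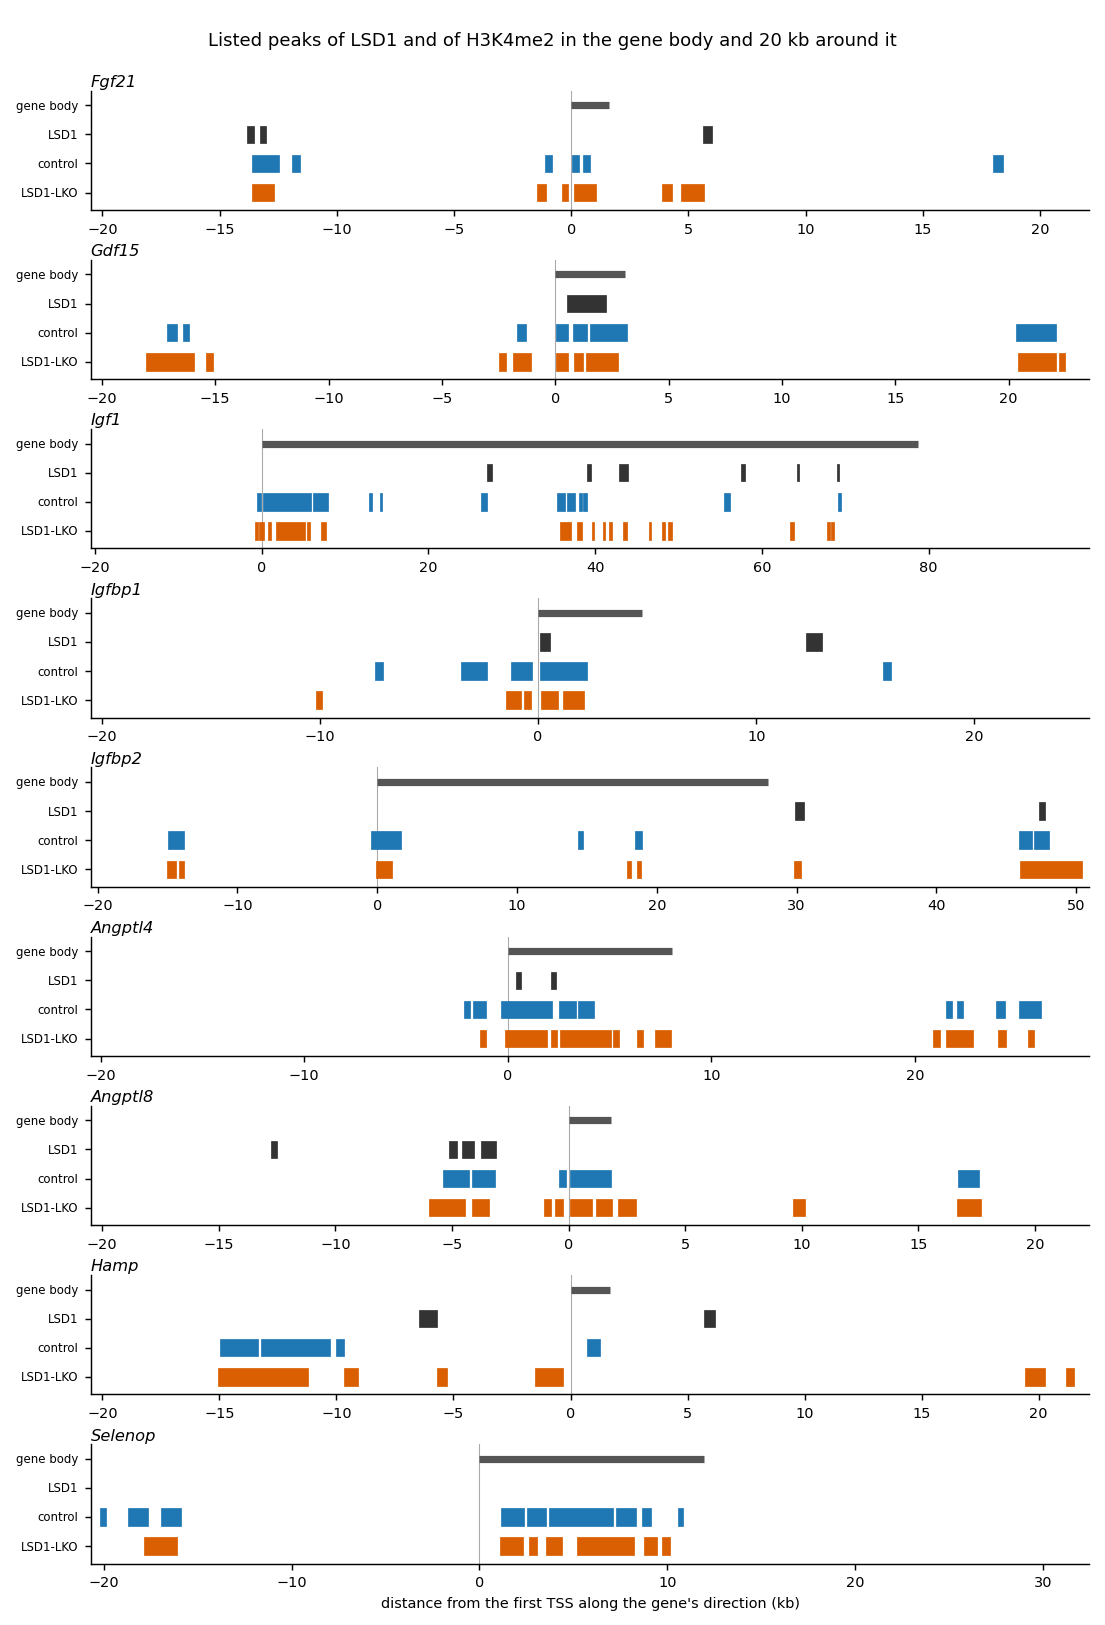
Listed peaks in the windows of the 9 genes, by distance in kb from the first TSS along the gene's direction (x axis), each panel on its own scale, with the gene body in grey, LSD1 peaks of wild-type liver in black, control H3K4me2 in blue and LSD1-LKO H3K4me2 in orange, as intervals of the first-listed libraries. H3K4me2 lies at all 9 promoters in both lists, LSD1 lies at the promoters of Gdf15, Igfbp1 and Angptl4, and Selenop has no LSD1 peak.

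Fgf21 (ENSMUSG00000030827, chr7:45613886-45615490, minus strand) encodes the fasting and stress hormone FGF21. Its promoter sequence and the stretch of the nearest distal LSD1 peak are shown because ATF4, a transcription factor of the stress response, is known to act on this gene. Both are printed 5′ to 3′ on the strand of the gene, with capitals for the letters of any of 9 searched motifs. The promoter is from the RefSeq table of GRCm38.p6, cut 30 bases after the TSS, and the LSD1 peak is from the same assembly.
Fgf21 promoter, chr7:45615461-45615740: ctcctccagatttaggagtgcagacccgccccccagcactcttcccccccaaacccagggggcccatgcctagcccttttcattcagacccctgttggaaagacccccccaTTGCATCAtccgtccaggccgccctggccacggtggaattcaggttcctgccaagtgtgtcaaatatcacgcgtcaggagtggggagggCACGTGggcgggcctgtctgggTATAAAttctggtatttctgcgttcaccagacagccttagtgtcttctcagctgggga
Fgf21 distal LSD1 peak, chr7:45609562-45609861: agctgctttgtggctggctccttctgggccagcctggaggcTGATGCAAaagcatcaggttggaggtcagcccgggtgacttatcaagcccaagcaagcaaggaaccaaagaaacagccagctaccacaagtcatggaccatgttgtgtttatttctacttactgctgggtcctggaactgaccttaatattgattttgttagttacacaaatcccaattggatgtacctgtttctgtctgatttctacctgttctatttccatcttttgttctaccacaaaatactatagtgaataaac

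The letters searched on both strands were GCATGCGC for NRF1, CCGGAAGT for GABP, CAAGGTCA for ERR, TATAAA for the TATA box, CAAAGTCCA for HNF4, GTAAACA for FOXO, TGACGTCA for the cyclic AMP response element, TGATGCAA for ATF4 and ACGTG for the core of the hypoxia response element. None of these holds another. The Fgf21 promoter held the TATA box letters, found in 13.6% of the 32851 promoters of the table, the ATF4 letters on the other strand, found in 0.895% of them, and a CACGTG that reads as the hypoxia core on both strands. The letters of this core were found in 19.6%. Of the promoters of the 9 genes, that of Angptl8 held the ATF4 letters too. The distal LSD1 peak held the ATF4 letters as well, outside the 300 bases at its center. They occurred in 1.15% of such centers of all LSD1 peaks. A match of letters is a description of the sequence and no measurement of binding. The NRF1, GABP and ERR letters were in neither of the printed Fgf21 stretches. RefSeq promoters were found for 8 of the 9 genes, and Angptl4 was not among them.

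No LSD1 peak was listed at the Fgf21 promoter. H3K4me2 was listed there in both genotypes, downstream of the TSS and, in part, upstream. In control liver the first-listed peaks ran from 23 to 353 bp and from 492 to 808 bp downstream of the TSS, with fold enrichments over the control library of 2.73 and 2.61. Libraries were called separately and their fold enrichments are not on 1 scale, so those of control and LSD1-LKO are given side by side and no difference is read from them. They shared 1 second-listed peak of 1273 bp across the TSS, with a fold enrichment of 5.27. In LSD1-LKO liver a single first-listed peak ran from 129 to 1060 bp downstream with a fold enrichment of 2.86, and a further peak lay 124 to 400 bp upstream with 2.67. Both shared 1 second-listed peak of 2485 bp with a fold enrichment of 5.003. The control peak 820 to 1107 bp upstream also lay at the promoter of Fut1, a fucosyltransferase gene. It overlapped an LSD1-LKO peak 1093 to 1438 bp upstream by 15 bp only. That LSD1-LKO peak lay at the Fut1 promoter, outside the Fgf21 promoter, and no second-listed control interval overlapped it. In the first-listed libraries 829 bp of promoter were covered in control and 1149 in LSD1-LKO, and in the second-listed 1821 and 1885 bp. Covered length was thus higher in LSD1-LKO by 320 and 64 bp in the order of listing, but the libraries of the genotypes overlapped. The strongest promoter peak, placed among all peaks of its own library by its −log10 p-value, was at percentiles of 28.1 and 62.4 in control and of 48.1 and 62.4 in LSD1-LKO, which overlapped. The primers that the study used for ChIP-qPCR at Fgf21 matched chr7:45615403-45615489, 87 bp in the 5′ UTR that start 1 bp after the TSS. This amplicon was covered over 65 bp by the first-listed control peaks and over 0 bp by those of LSD1-LKO, and over all 87 bp in both second-listed libraries. By ChIP-qPCR near the TSS, the paper reports more H3K4me2 in LSD1-LKO. Covered length is no measure of signal and cannot be set against that result.

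**Figure D2:**
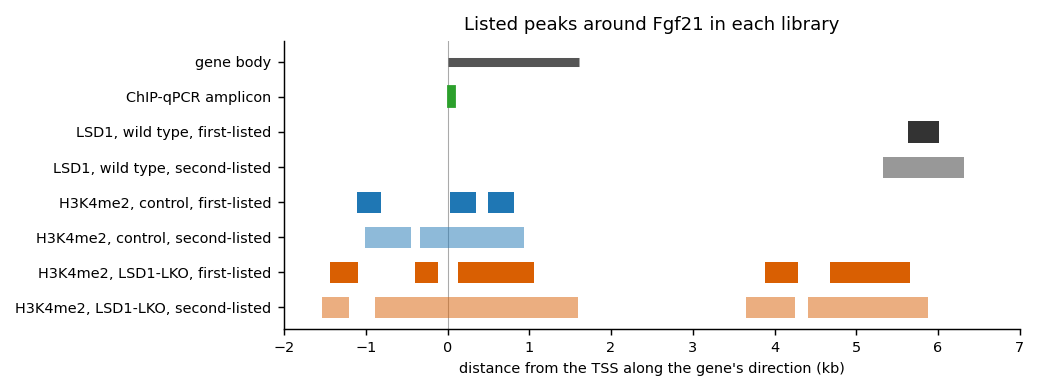
Listed peaks around Fgf21 in each library, by distance in kb from the TSS along the gene's direction (x axis), with first-listed intervals in full color, second-listed intervals in pale color, the gene body in grey and the ChIP-qPCR amplicon in green. The second-listed peaks of both genotypes span the TSS, and H3K4me2 peaks 3887 to 5663 bp downstream are listed in LSD1-LKO and not in control.

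The distal peaks of Fgf21 differed between the lists. Downstream of the gene, LSD1-LKO had H3K4me2 peaks centered 4.09 and 5.17 kb from the TSS, with fold enrichments of 2.95 and 2.35 in the first-listed library and 3.94 and 5.01 in the second-listed. No control peak of either library overlapped these first-listed intervals. The distal LSD1 peak of wild-type liver, 387 bp wide and centered 5.82 kb downstream of the TSS in intergenic sequence, overlapped the farther of these peaks by 35 bp, or by 246 bp with the second-listed interval. Its fold enrichments were 4.15 and 2.14, at percentiles of 84.2 and 8.45 of the 2 LSD1 libraries, so that only one library ranked it high. A further control H3K4me2 peak 18.2 kb downstream had no LSD1-LKO counterpart. The strongest H3K4me2 of the window lay 13.04 to 13.2 kb upstream, at Rasip1, a gene of vessel development. Its fold enrichments were 10.2 and 10.2 in control, with 3.80 and 9.67 in LSD1-LKO, and its rank was 99.9 and 97.9. A peak's rank is the percentile, in its list, of its −log10 p-value averaged over the pair of libraries. A pair of LSD1 peaks lay there as well, with ranks of 45.2 and 51.9.

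Gdf15 (ENSMUSG00000038508, chr8:70629393-70632456, minus strand) encodes GDF15, a hormone raised by cellular stress that lowers food intake. It carried the strongest LSD1 peak of the 9 genes. The middle of that peak and the promoter upstream of it are shown because LSD1 lies past the TSS and not over it.
Gdf15 LSD1 peak, chr8:70630932-70631231, from GRCm38.p6: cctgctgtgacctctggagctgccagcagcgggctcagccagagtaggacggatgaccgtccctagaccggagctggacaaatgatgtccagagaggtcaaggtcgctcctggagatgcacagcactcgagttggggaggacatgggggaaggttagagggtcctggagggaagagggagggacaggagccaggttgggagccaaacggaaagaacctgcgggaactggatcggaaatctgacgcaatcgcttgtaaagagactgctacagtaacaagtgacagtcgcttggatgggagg
Gdf15 promoter, chr8:70632427-70632706, from the RefSeq table: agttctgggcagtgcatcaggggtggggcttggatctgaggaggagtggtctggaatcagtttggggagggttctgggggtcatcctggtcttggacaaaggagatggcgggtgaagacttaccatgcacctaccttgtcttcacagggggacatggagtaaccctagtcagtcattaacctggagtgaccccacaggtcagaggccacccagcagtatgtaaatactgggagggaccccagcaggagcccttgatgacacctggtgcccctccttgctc

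The letters of none of the 9 motifs occurred in these stretches. The LSD1 peak was 1728 bp wide and ran from 510 to 2237 bp downstream of the first TSS, over introns and coding exons, with its center in intron 2. Its fold enrichments were 6.01 and 10.2, at percentiles of 98.6 and 99.8, and its rank was 99.7. Of the 1728 bp, 1402 were covered by control H3K4me2 and 1315 by LSD1-LKO H3K4me2. H3K4me2 had the same outline in both genotypes. Peaks lay just after the TSS, over exon 2 and over the second part of the gene, with the highest in the gene body. That gene body peak had fold enrichments of 5.45 and 6.07 in control, with 4.05 and 5.71 in LSD1-LKO. The promoter length covered was 1102 and 926 bp in the first-listed libraries and 1986 and 2034 bp in the second-listed, so that the change was -176 and 48 bp. The percentiles of the strongest promoter peak overlapped, at 60.8 and 79.3 in control and at 48.9 and 84.2 in LSD1-LKO. The window length covered was higher in LSD1-LKO in both pairs of libraries, by 2065 and 3374 bp. The strongest distal H3K4me2 lay 20.8 kb downstream in control and 20.9 kb in LSD1-LKO, in intergenic sequence, with fold enrichments of 7.46 and 6.82 in control and of 2.998 and 8.95 in LSD1-LKO, and ranks of 95.9 and 91.7. At 16.3 to 17.01 kb upstream, in exon 5 of Pgpep1, a peptidase gene, 1 peak covered 2110 bp in LSD1-LKO and a pair of peaks covered 288 and 433 bp in control. Their fold enrichments were 5.36 and 5.003 in the first- and second-listed LSD1-LKO libraries, and 2.61 and 2.98 in the first-listed and 6.59 in the second-listed control library.

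Igf1 (ENSMUSG00000020053, chr10:87858265-87937042, plus strand) encodes insulin-like growth factor 1, for which the liver is the main source in blood. It had the widest first-listed control H3K4me2 peak of the 9 windows. In control liver 1 first-listed peak of 5785 bp began 122 bp after the first TSS, with fold enrichments of 5.80 and 8.24. In LSD1-LKO liver the same region was listed as several first-listed peaks, the longest of 3541 bp, with fold enrichments of 3.198 and 6.80. In the second-listed libraries, however, the domain was 1 peak in both genotypes, of 6696 bp in control and of 10002 in LSD1-LKO. In the first-listed libraries 4418 bp of promoter were covered in control and 3571 in LSD1-LKO, and in the second-listed 4719 and 5065 bp, so that its direction depended on the library.

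Within their own libraries the Igf1 promoter peaks had lower values in both LSD1-LKO libraries. The percentile of the strongest promoter peak, by its −log10 p-value, was 91.2 and 91.0 in the control libraries and 70.0 and 82.7 in the LSD1-LKO libraries. Igfbp2 was the other gene with this order, at 89.8 and 84.9 in control, with 64.8 and 56.3 in LSD1-LKO. The libraries of the genotypes did not overlap for these genes, and the mean differed by -14.8 for Igf1 and by -26.8 for Igfbp2. With 2 libraries against 2, the two-sided exact permutation test gave p = 0.333 for each, which is the smallest p that this design allows. At the other 7 genes the genotypes overlapped and the exact p was 0.667 or 1. Among the 12181 genes with a promoter peak in both lists, 16.4% had both LSD1-LKO libraries below both control libraries and 17.8% had both above. Of the 9 genes 2 were below and 0 above, and the share below is near that of all genes.

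**Figure D3:**
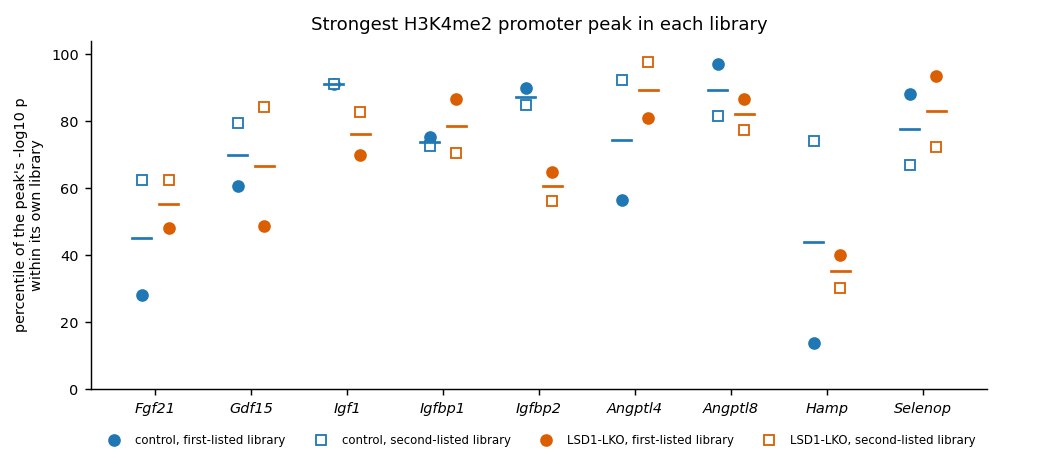
Percentile of the −log10 p-value of the strongest H3K4me2 promoter peak within its own library (y axis, 0 to 100) for the 9 genes, with control in blue, LSD1-LKO in orange, first-listed libraries as filled circles, second-listed libraries as open squares and group means as bars. Both LSD1-LKO libraries lie below both control libraries at Igf1 and Igfbp2, and the genotypes overlap at the other 7 genes.

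The distal sites of Igf1 were spread over its second intron and the last part of the gene, with 6 LSD1 peaks in the gene body and none at the promoter. Those at 24.3, 36.2 and 66.1 kb from the nearest TSS overlapped first-listed H3K4me2 of the control list and not of the LSD1-LKO list, by 38, 15 and 145 bp. Second-listed LSD1-LKO intervals, however, overlapped the latter pair by 90 and 160 bp. The LSD1 peak at 40.3 kb overlapped H3K4me2 of the LSD1-LKO list, by 436 bp, and no control interval of either library. Those at 54.7 and 61.3 kb overlapped neither. Their ranks ran from 8.89 to 73.7. The strongest distal control H3K4me2 lay 32.9 kb from the nearest TSS, with a rank of 49.7, and that of LSD1-LKO 2.59 kb away, within the domain, with 68.6. Over the window, 12 control and 18 LSD1-LKO H3K4me2 peaks were listed, and the covered length was 13335 and 10893 bp in the first-listed libraries and 15547 and 20464 bp in the second-listed. The stretch of the peak listed with H3K4me2 in LSD1-LKO is shown together with the comparable stretch near Igfbp2.
Igf1 intron 2 LSD1 peak, chr10:87901718-87902017, plus strand: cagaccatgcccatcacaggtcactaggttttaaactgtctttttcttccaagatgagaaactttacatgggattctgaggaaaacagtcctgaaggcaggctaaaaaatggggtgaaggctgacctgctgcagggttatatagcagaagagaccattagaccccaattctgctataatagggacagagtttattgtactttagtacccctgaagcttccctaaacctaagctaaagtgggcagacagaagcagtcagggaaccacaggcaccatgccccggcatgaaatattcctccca
Igfbp2 distal LSD1 peak, chr1:72854444-72854743, plus strand: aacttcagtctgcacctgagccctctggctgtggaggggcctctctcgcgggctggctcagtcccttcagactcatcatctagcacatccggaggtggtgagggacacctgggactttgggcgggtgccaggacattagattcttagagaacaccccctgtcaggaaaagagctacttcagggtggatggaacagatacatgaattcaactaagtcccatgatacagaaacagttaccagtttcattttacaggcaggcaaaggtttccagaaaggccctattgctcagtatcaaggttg

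Igfbp2 (ENSMUSG00000039323, chr1:72824503-72852474, plus strand) encodes IGF binding protein 2. Its promoter held 1 H3K4me2 peak in each list and no LSD1 peak. The peak was 2188 bp wide in control, with fold enrichments of 5.97 and 7.40, and 1106 bp wide in LSD1-LKO, with 3.69 and 4.50. The second-listed peaks were 3302 and 2132 bp wide. Igfbp2 was thus the only one of the 9 genes at which covered promoter length was lower in LSD1-LKO in both pairs of libraries, with changes of -1082 and -542 bp. The LSD1 peak shown above lay in intergenic sequence past the end of the gene, 29.4 kb from the nearest TSS. Its fold enrichments were 2.58 and 7.02, its rank was 92.7, and the ERR letters occurred in it at 1 place outside the stretch shown. H3K4me2 covered 481 bp of it in the LSD1-LKO list, with fold enrichments of 2.59 and 3.66, and 0 bp in the control list. A second LSD1 peak of rank 94.9 lay at the edge of the window, in intron 1 of Igfbp5, the neighbouring gene of another IGF binding protein. It was covered by H3K4me2 in both lists. In LSD1-LKO that H3K4me2 was 1 peak of 4464 bp which reached the Igfbp5 promoter. In control it was listed as peaks of 927 and 1088 bp, and a further control peak past the edge of the window lay at the Igfbp5 promoter.

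Igfbp1 (ENSMUSG00000020429, chr11:7197782-7202546, plus strand) encodes IGF binding protein 1, an insulin-repressed gene of fasting. It had a weak LSD1 peak just past its TSS. The promoter and the middle of this peak are shown because both lie close to the TSS.
Igfbp1 promoter, chr11:7197537-7197811, from the RefSeq table: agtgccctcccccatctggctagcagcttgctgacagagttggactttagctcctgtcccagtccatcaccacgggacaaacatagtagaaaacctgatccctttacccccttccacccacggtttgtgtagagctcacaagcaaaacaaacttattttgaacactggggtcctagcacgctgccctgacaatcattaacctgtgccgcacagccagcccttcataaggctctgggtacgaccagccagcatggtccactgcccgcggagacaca
Igfbp1 LSD1 peak, chr11:7197939-7198238, from GRCm38.p6: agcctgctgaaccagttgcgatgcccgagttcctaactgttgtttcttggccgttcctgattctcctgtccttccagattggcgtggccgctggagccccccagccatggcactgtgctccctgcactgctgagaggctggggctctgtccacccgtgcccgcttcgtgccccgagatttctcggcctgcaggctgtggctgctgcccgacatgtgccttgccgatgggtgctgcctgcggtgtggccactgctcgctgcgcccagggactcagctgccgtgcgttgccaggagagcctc

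The letters of none of the 9 motifs occurred in either. The LSD1 peak ran from 73 to 542 bp downstream of the TSS, centered in coding exon 1. Its fold enrichments were 2.00 and 3.497, at percentiles of 6.79 and 63.0, with a −log10 p-value of 1.93 in the first-listed library, so that it was lost when a p-value at or below 0.01 was required in both libraries. Of its length, 449 bp held control H3K4me2 and 401 that of LSD1-LKO. On both sides of the TSS, H3K4me2 was listed in both genotypes. The strongest promoter peak had fold enrichments of 4.34 and 5.56 in control, with 4.80 and 5.73 in LSD1-LKO. Its percentiles of 75.2 and 72.6 in control lay between those of LSD1-LKO, at 86.7 and 70.5. Control peaks 2.93 and 7.30 kb upstream were not overlapped by a first-listed LSD1-LKO peak, though a second-listed LSD1-LKO interval overlapped the nearer by 337 bp. A peak of LSD1-LKO 10.03 kb upstream, at the promoter of Gm11985, was not listed in control, and a control peak at the promoter of Igfbp3, the gene of the main carrier of IGF1 in blood, was not listed in LSD1-LKO. The window length covered was 5082 and 3053 bp in the first-listed libraries and 6128 and 5884 bp in the second-listed. Igfbp1 and Selenop were the genes at which it was lower in LSD1-LKO in both pairs, though at both the libraries of the genotypes overlapped.

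Angptl4 (ENSMUSG00000002289, chr17:33773750-33781830, minus strand) encodes an inhibitor of lipoprotein lipase that is induced in fasting. It carried LSD1 at its promoter in coding exon 1, 389 to 671 bp downstream of the TSS, with fold enrichments of 2.67 and 4.61 and a rank of 71.4. The peak is shown because it is entirely covered by H3K4me2 in both lists, with 283 of 283 bp in each. The 264 bp farther from the TSS are printed.
Angptl4 LSD1 peak, chr17:33781159-33781422, minus strand, from GRCm38.p6: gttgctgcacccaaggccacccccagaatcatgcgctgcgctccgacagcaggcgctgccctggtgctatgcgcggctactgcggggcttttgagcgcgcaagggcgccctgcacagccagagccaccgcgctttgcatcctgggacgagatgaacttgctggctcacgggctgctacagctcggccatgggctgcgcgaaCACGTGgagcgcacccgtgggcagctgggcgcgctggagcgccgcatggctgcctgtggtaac

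It held a CACGTG, which reads as the hypoxia core on both strands, and the letters of this core occur in 16.98% of the centers of all LSD1 peaks. A second LSD1 peak, in intron 3, had fold enrichments of 1.75 and 3.84 and overlapped H3K4me2 in both lists, by 54 bp in control and by 263 in LSD1-LKO. H3K4me2 at Angptl4 was broad in both genotypes. The first-listed promoter peak spanned 2491 bp in control and 2071 in LSD1-LKO, with fold enrichments of 3.23 and 4.43. The second-listed peak was 7583 and 8145 bp wide, with 8.41 and 9.31. Percentiles were 56.4 and 92.3 in control, with 80.8 and 97.8 in LSD1-LKO, and they overlapped. Within the gene body LSD1-LKO had peaks in intron 6 and exon 7, centered 5.33, 6.49 and 7.62 kb from the TSS, that overlapped no first-listed control peak. The second-listed control peak reached over the nearer pair of these. The strongest peaks of the gene body outside the promoter lay at 2.94 kb in control, with a rank of 79.9, and at 3.80 kb in LSD1-LKO, with 98.3. The promoter of Rab11b, a neighbouring gene of vesicle transport, was marked in both lists. Over the window, the covered length was higher in LSD1-LKO in both pairs of libraries, by 1778 and 3491 bp, though the libraries of the genotypes overlapped.

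Angptl8 (ENSMUSG00000047822, chr9:21835510-21837347, plus strand) encodes a feeding-induced partner of the ANGPTL proteins and lies inside an intron of Dock6. LSD1 was not listed at its promoter. A group of 3 LSD1 peaks lay 3.43 to 4.95 kb upstream, in introns and an exon of Dock6, with ranks of 25.8 to 69.4, and all 3 overlapped H3K4me2 in both lists. The strongest of them, with fold enrichments of 3.96 and 2.82, held the NRF1 letters at 1 place outside its center, and none of the other 21 LSD1 peaks did. Another LSD1 peak 12.6 kb upstream overlapped neither list. The promoter H3K4me2 of Angptl8 was strong in both genotypes, with fold enrichments of 7.09 and 6.99 in control, with 4.80 and 6.08 in LSD1-LKO. Its percentiles of 97.1 and 81.4 in control overlapped those of 86.7 and 77.4 in LSD1-LKO. The covered promoter length was higher in LSD1-LKO by 252 and 410 bp, and the covered window length by 1773 and 2566 bp. LSD1-LKO peaks 2.51 and 9.87 kb downstream of the TSS had no overlap with a first-listed control peak, though a second-listed control interval overlapped part of the nearer. The farther promoter of Dock6, which encodes a guanine nucleotide exchange factor, was marked in both lists, with ranks of 75.6 and 57.0 for the peaks at 17.1 and 17.2 kb.

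Hamp (ENSMUSG00000050440, chr7:30942368-30944032, minus strand) encodes hepcidin, the iron hormone. Its promoter was listed in both H3K4me2 lists, but at different places. The control peak lay 705 to 1266 bp downstream of the TSS, in the gene, with fold enrichments of 2.39 and 6.48. The LSD1-LKO peak lay 314 to 1516 bp upstream, with 2.95 and 3.58. The first-listed peaks did not overlap each other. The second-listed control peak, however, was 2922 bp wide and spanned the TSS, and it covered 877 bp of the LSD1-LKO peak. Covered promoter length was thus higher in LSD1-LKO in the first-listed libraries, at 687 against 296 bp, and lower in the second-listed, at 641 against 2001 bp. The percentiles of 13.97 and 74.1 in control enclosed those of 40.2 and 30.4 in LSD1-LKO. Of the LSD1 peaks, that centered 5.93 kb downstream overlapped no H3K4me2, and that 6.07 kb upstream, in intron 7 of Usf2, overlapped H3K4me2 of the LSD1-LKO list by 7 bp. At Hamp2, a near-identical neighbouring gene, LSD1-LKO had H3K4me2 peaks at the promoter and in exon 2 that were not listed in control. Reads of Hamp and Hamp2 may not be told apart, so values at both are uncertain. The strong H3K4me2 at the promoter of Usf2, which encodes a transcription factor, was listed in both genotypes, with ranks of 89.1 and 88.2.

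Selenop (ENSMUSG00000064373, chr15:3268547-3280508, plus strand) encodes selenoprotein P, and it was the only one of the 9 genes with no LSD1 peak in its window. H3K4me2 was listed over much of the gene in both genotypes, beginning 1130 and 1116 bp after the first TSS. The strongest control peak at the promoters was 3442 bp wide, with fold enrichments of 5.46 and 5.05. The strongest LSD1-LKO promoter peak was 1180 bp wide, with 5.54 and 4.94, and a gene body peak of 3079 bp had 5.77 and 6.80 and a rank of 89.4. The strongest distal control peak lay 5.35 kb past the nearest TSS, with a rank of 62.3. Percentiles were 88.0 and 67.1 in control, with 93.6 and 72.2 in LSD1-LKO. The second-listed control peak ran over 8001 bp, and in LSD1-LKO the same stretch was listed as peaks of 4432 and 4041 bp. Covered promoter length was 3043 and 2402 bp in the first-listed libraries and 3319 and 3435 bp in the second-listed.

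Over the 9 genes, the 22 LSD1 peaks fell into 10 that overlapped H3K4me2 in both lists, 3 in the control list only, 4 in the LSD1-LKO list only and 5 in neither. Of all 14584 LSD1 peaks 44.4%, 8.09%, 9.38% and 38.1% were in these classes. All 3 LSD1 promoter peaks overlapped H3K4me2 in both lists. Among the 19 at no promoter, 4 overlapped H3K4me2 in the LSD1-LKO list only, at Fgf21, Igf1, Igfbp2 and Hamp. That is 21.1%, with a 95% Wilson confidence interval of 8.51% to 43.3%, and 12.1% of all 9471 LSD1 peaks at no promoter were in this class. The interval covers counting error only, and it holds the share of all peaks. The overlap at Fgf21 and Hamp was 35 and 7 bp, and when an overlap of 50% of the narrower interval was required the share of the 22 LSD1 peaks with control H3K4me2 was 40.9% in place of 59.1%.

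**Figure D4:**
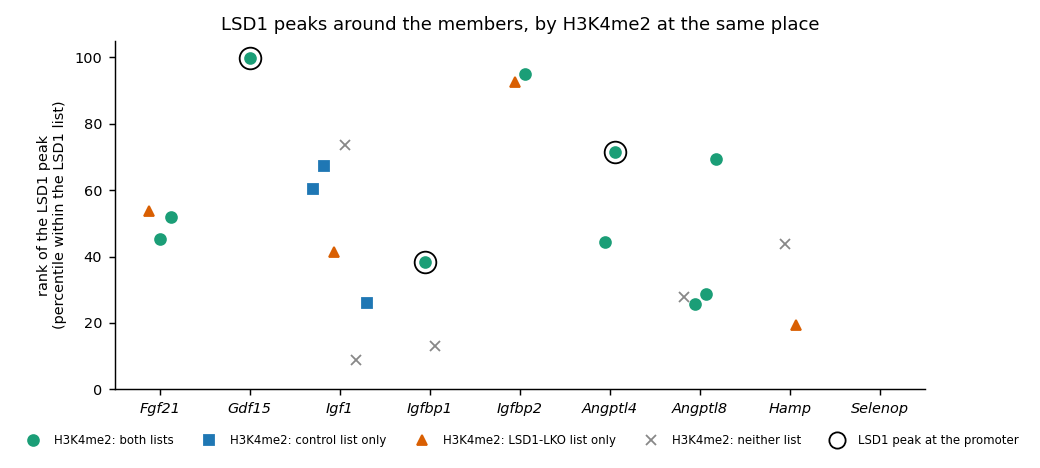
Rank of each of the 22 LSD1 peaks within the LSD1 list (y axis, percentile) by gene (x axis), with the symbol giving the H3K4me2 list that holds a peak at the same place and a ring around peaks at the promoter of the gene. The peak of Gdf15 ranks at 99.7 and the peaks with H3K4me2 in LSD1-LKO only lie at Fgf21, Igf1, Igfbp2 and Hamp.

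Of the 63 control H3K4me2 peaks, 47 overlapped an LSD1-LKO peak, which is 74.6% (62.7% to 83.7%), against 68.1% of all control peaks. Among 78 peaks of LSD1-LKO, 47 had a control partner, which is 60.3% (49.2% to 70.4%), against 64.1% of all. The ranges in brackets are Wilson intervals that count each first-listed peak as independent. The 63 and 78 peaks shared 43 and 54 second-listed peaks, so these intervals may be too narrow. The 16 control peaks and 31 LSD1-LKO peaks without a partner included 1 and 3 peaks at the promoters of the 9 genes. In the first-listed libraries the covered promoter length was lower in LSD1-LKO at 6 of 9 genes and higher at 3, while among all genes with a promoter peak in both lists it was lower at 61.3% and higher at 38.1%. The median change was -188 bp for the 9 genes and -113 bp for all genes. In the second-listed libraries it was 81 and 11 bp, and the change was negative at 2 of the 9 genes and at 41.3% of all genes. Covered window length was lower at 4 and higher at 5 of the 9 genes, against 58.3% and 41.6% of all genes, with medians of 964 and -205 bp. In the second-listed libraries the medians were 709 and 367 bp. The plot of changes in covered length pairs libraries by their order of listing, which matches no replicates. In these pairs Fgf21, Angptl8 and Igfbp2 kept their direction at the promoter, and the other 6 genes did not. With all libraries compared, the genotypes were apart at Angptl8 and Igfbp2. At Fgf21 they overlapped, with 829 and 1821 bp in control and 1149 and 1885 bp in LSD1-LKO. No such share of all genes is given, so nothing is read from this. For the windows, in the same pairs, Fgf21, Gdf15, Angptl4 and Angptl8 were higher, Igfbp1 and Selenop lower, and Igf1, Igfbp2 and Hamp of either sign. With all libraries compared, the genotypes were apart at Gdf15 and Angptl8 only. They overlapped at Fgf21, Angptl4, Igfbp1 and Selenop as well as at the genes of either sign. These lengths have no replicate within a genotype beyond the pair of libraries, and no test was made of them.

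**Figure D5:**
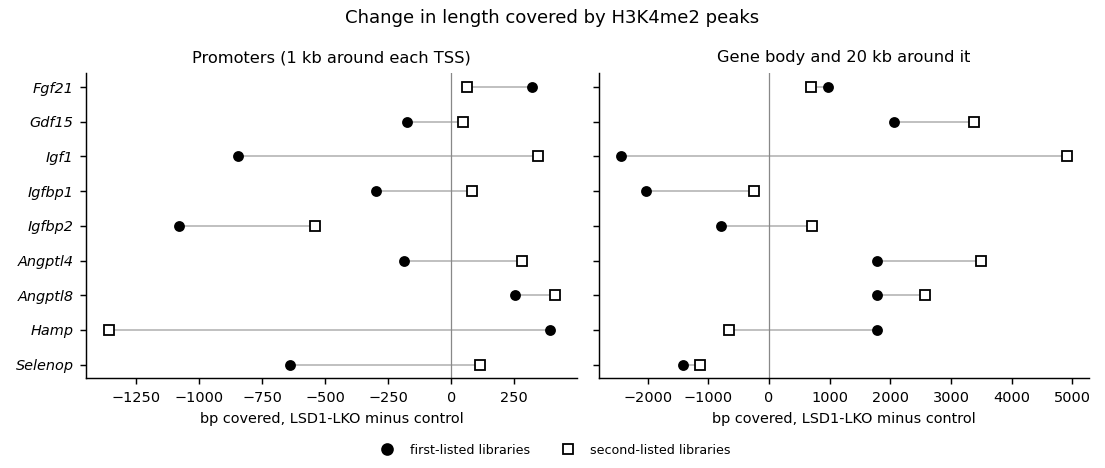
Change in the length covered by H3K4me2 peaks, LSD1-LKO minus control in bp (x axes), at the promoters (left) and in the gene body and 20 kb around it (right) of the 9 genes, with first-listed libraries as filled circles and second-listed libraries as open squares joined by a line. Lines that cross 0 mark genes whose direction depends on the library, which are 6 of 9 at promoters and 3 of 9 in the windows. Libraries are paired by their order of listing, which matches no replicates.

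The other genes of these pathways were described with 60 genes in 6 lists, and those named for being in 1 list only, in no list, or below or above control were chosen after their values were seen. Of these, 23 had an LSD1 promoter peak, 48 an H3K4me2 promoter peak in control and 51 in LSD1-LKO, against 23.6%, 58.8% and 58.9% of all genes. Among the 45 with a peak in both lists, 8 had both LSD1-LKO libraries below both control libraries and 6 had both above, which is close to the 16.4% and 17.8% of all genes, so that nothing is read from which genes these were. Of the 9 genes of FGF21 receptors and regulators, 8 were marked in both lists and 3 carried LSD1. These were Fgfr2, a receptor gene, Atf4 and Ppara, the latter for the fatty acid receptor of fasting, with LSD1 ranks of 33.2, 54.3 and 66.6. In the control list promoter H3K4me2 was highest in rank at Atf4, with 96.5, and at Fgfr3, with 93.1. In the LSD1-LKO list it was highest at Fgfr3, with 96.6, and Atf4 was at 80.6, behind Xbp1 at 89.4, Ppara at 85.4 and Klb at 83.4. Atf4 was among the genes below and Ppara and Fgfr3 among those above. Klb, for the co-receptor of FGF21, was marked in both lists without LSD1. In the IGF axis 7 of 10 were marked in each list and 5 carried LSD1, led by Ghr, the growth hormone receptor gene, at a rank of 86.0. Igfals, which encodes the acid-labile subunit of the circulating IGF complex, was marked in LSD1-LKO and not in control, as was Igfbp7, and Igf2 and Igfbp3 were marked in control and not in LSD1-LKO. Promoter H3K4me2 of Igfbp5 ranked at 38.7 in control and 91.4 in LSD1-LKO, with both LSD1-LKO libraries above both control libraries. Igf2r, with an LSD1 promoter peak, had the opposite order, at 92.7 in control and 38.5 in LSD1-LKO. The LSD1-LKO peak ranked at Igfbp5 was the one of 4464 bp centered in intron 1. In control that part of intron 1 was listed as separate peaks outside the promoter, with ranks of 79.4 and 70.5. The Igfbp5 ranks are thus not of the same stretch.

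Of 7 ANGPTL and lipase genes, 5 were marked in control and 6 in LSD1-LKO. The highest control rank was 95.8 at Lmf1, a lipase maturation gene, which was among the genes below at 65.0 in LSD1-LKO. Lipg, the endothelial lipase gene, was among those above, at 91.4 in control and 98.4 in LSD1-LKO. LSD1 was listed at Lipc alone, the hepatic lipase gene, with a rank of 83.6, and Lipc was marked in LSD1-LKO only. Of 14 hepcidin pathway genes, 12 were marked in control, 13 in LSD1-LKO and 5 carried LSD1. The highest LSD1 ranks were 74.7 at Acvr1, a BMP receptor gene, and 73.0 at Tmprss6, which encodes the protease that limits hepcidin induction. Promoter H3K4me2 ranked highest at Smad7, for an inhibitor of BMP signaling, at 99.2 in control and 97.5 in LSD1-LKO. That of Slc40a1, the iron exporter gene that hepcidin acts on, ranked at 97.6 and 95.3. Hjv, the hemojuvelin gene, was marked in control only, and Bmp6 and Hamp2 in LSD1-LKO only. Of 8 genes of selenoprotein P handling, 4 carried LSD1, with ranks of 96.0 at Sepsecs, which makes selenocysteine tRNA, and 91.2 at Eefsec, its elongation factor. Both LSD1-LKO libraries were below both control libraries at Sepsecs, Lrp8 and Scly, and above at Eefsec. Gpx1, a selenoenzyme gene, had the highest control rank, of 96.2, and was at 89.7 in LSD1-LKO. Of 12 other hepatokine genes, 9 were marked in each list and 5 carried LSD1, with the highest rank of 96.6 at Tsku. Promoter H3K4me2 of Fetub and Tsku ranked at 95.5 and 95.4 in control and at 68.8 and 91.6 in LSD1-LKO. Lcn2 had an LSD1 promoter peak and no promoter H3K4me2 in either list, and Serpina12 and Hgf had no promoter peak in any. The pattern of Fgf21, H3K4me2 in both lists and no LSD1 at the promoter, was shared by 25 of the 60 genes and by 33.2% of all genes, among them Klb, Fgfr1, Fgfr3, Fgfr4 and Xbp1 of its own list.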

How the data were processed

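LSD1 ChIP-seq was of wild-type liver and H3K4me2 ChIP-seq of GFP control and LSD1-LKO liver, with 2 ChIP libraries each. The authors mapped reads to mm10 with Bowtie2, called narrow peaks per library with MACS2 against the control libraries, and kept peaks shared by both libraries with bedtools 2.25.0. Each deposited list has 21 columns, a peak of each library side by side and their overlap. The authors deposited, per peak and library, the fold enrichment over the control library, a ratio, and the −log10 p-value. Peaks were called on separate libraries, so these scores are not on 1 scale between libraries, and genotypes were tested only on percentiles within a library. Listed p-values reached 0.05, while the methods name a lower limit. Only peaks of both libraries are listed, which leaves out weaker sites, and the numbers of reads are unknown. The other 18 columns of per-library values (scores, q-values, summit offsets) were not used.

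The members and all lists of genes were chosen with earlier results of these data known. All 9 members were named with their promoter peaks and strongest distal peaks, neighbours where a peak lay at their promoter, and pathway genes by the highest rank or, after their values were seen, by the lists that held them. The names and sequence lengths of 21 chromosomes were checked between mm10 and GRCm38.p6. Overlaps and covered lengths were computed in Python 3.11.15 with pandas 2.3.3, numpy 2.4.6, scipy 1.17.1 and pysam 0.24.0, and tested on simulated data. Library percentiles were compared with a two-sided exact permutation test of 2 libraries against 2. Results were recomputed under 11 other settings, and a replicate block was not possible. Leaving out each H3K4me2 library and the second-listed intervals of single genes were added after seeing the data.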

Additional observations from a re-analysis of the deposited data

How the results depend on the processing

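Of 106 values under other settings, 12 changed sign and 19 moved by more than 1.5 times (counts), the spread of the libraries (means) or the interval (shares). The other 75 did neither, but values of single genes were checked for their sign only. The spread for a mean was taken from its main and second-listed values, so a second-listed mean could not count as unmoved. The cause was not tested. Sizes among the 75 could still differ, as for the Fgf21 promoter change of 64 bp in the second-listed libraries in place of 320 bp, the Fgf21 percentile difference of 1.33 by fold enrichment in place of 10.03, the Igfbp1 window change of -244 bp in place of -2029 bp, and the mean window change of 51.3 bp at a p-value of 0.01. When both libraries had to reach a p-value of 1e-05, LSD1 was at the promoter of 1 gene (Gdf15) in place of 3, control H3K4me2 at 6 and LSD1-LKO H3K4me2 at 5 in place of 9 each, and the windows held 1 LSD1, 20 control and 19 LSD1-LKO peaks, 100% of the LSD1 peaks overlapping control H3K4me2. The mean promoter change was then -618 bp in place of -252 bp, and the mean window change -618 bp in place of 187 bp. In the second-listed libraries these means were -62 and 1522 bp, and with 1 TSS per gene the promoter mean was -31.3 bp. With 50 kb on either side the windows held 38 LSD1, 109 control and 124 LSD1-LKO peaks and the mean window change was -181 bp. Joining peaks within 500 bp left 40 control and 50 LSD1-LKO peaks.

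In the second-listed libraries the promoter change was 48 bp at Gdf15, 346 bp at Igf1, 81 bp at Igfbp1, 279 bp at Angptl4, 116 bp at Selenop and -1360 bp at Hamp, and the window change 4917 bp at Igf1, 709 bp at Igfbp2 and -669 bp at Hamp, each of the opposite sign to the first-listed. With promoters of 2 kb on either side the percentile difference at Gdf15 was 1.83 in place of -3.51. Without 1 of the 4 H3K4me2 libraries, chosen after seeing the data, 5 to 6 genes in place of 2 had libraries that did not overlap, with 1 library left in a genotype. Leaving out a library can only keep or raise the number of genes whose libraries do not overlap, so this rise is no measure of sensitivity. No paired analysis was possible because the columns of the lists carry no replicate numbers. A library could not be left out of the lists, which hold only peaks of both.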
